A study of Mus musculus with 12 samples.

Results

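The MYC and MAX network is a group of basic helix-loop-helix leucine zipper transcription factors. The 10 genes described here are Myc, Mycn, Max, Mxd1, Mxd3, Mxd4, Mxi1, Mnt, Mlx and Mga. They were listed by name and matched by mouse symbol to 10 of the 56748 gene identifiers in the count tables. Of these, 9 had enough reads to be tested among 13535 genes, and Mycn did not.

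The study sequenced polyadenylated RNA in 12 libraries of a mouse B cell lymphoma line that carries the Eµ-Myc transgene and was put into C57BL/6J mice. This transgene places Myc under the immunoglobulin heavy chain enhancer, so all 3 groups carry it, and reads of the transgene and of the endogenous Myc gene cannot be told apart in counts per gene. The culture group held 4 libraries of cells from cell culture by their titles, which were followed here. The tissue label of these samples reads lymph node. The lymphatic group held 4 libraries of cells sorted from lymph nodes that they had reached through lymphatic vessels, collected 11 days after injection. The hematogenous group held 4 libraries of cells sorted from lymph nodes that they had reached through the blood, collected 18 days after injection. Route and day changed together and cannot be told apart. The labels do not state whether the line is 1 clone, which sorting gate was used, or whether libraries of a group came from separate animals or cultures, so p-values measure the spread between these libraries.

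MYC is active as a dimer with MAX, and this dimer binds E-box DNA and raises transcription of genes for ribosome production, metabolism and cell division. MXD1, MXI1, MXD3, MXD4, MNT and MGA also pair with MAX, occupy the same kind of site and bring corepressors to it. MLX is a MAX-like protein that pairs with MLXIP (MondoA) and MLXIPL (ChREBP), which respond to glucose metabolites, and also with MNT, MXD1 and MXD4. In B cell lymphoma of Eµ-Myc mice the transgene drives the MYC side of this network.

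The promoters of 9 of the 10 members were present in a RefSeq table of promoter sequences (build GRCm38.p6, 250 bases before to 50 after each gene's start). They were searched for the E-box CACGTG, which reads the same on both strands. It lay in the promoters of 4 of these 9 genes, Mxd4, Mnt, Mlx and Max, against 8.09% of the 27025 genes in the table. A second motif, CACGCG or its reverse complement CGCGTG, was found in 1 of the 9, Mga, against 10.49% of genes. By their letters the E-box and the second motif cannot overlap. A match is a description of the letters and was not tested for binding. The 4 promoters with the E-box are printed because they include 3 members whose RNA level differed between groups (Mxd4, Mnt and Mlx) and MAX, the shared partner; each reads 5′ to 3′ on the strand that the table gives for the gene, and the capitals mark the E-box. Bases after the start were found in the same sense in GENCODE M21 transcripts for Mxd4, Mnt and Mlx but not for Max. The Mxd4 window lies at chr5:34187711-34187960 on the minus strand, with the E-box beginning 219 bases before the start. The Mnt window lies at chr11:74830674-74830923 on the plus strand, with the E-box 123 bases before the start. The Mlx window lies at chr11:101087040-101087289 on the plus strand, with the E-box 40 bases before the start. The Max window lies at chr12:76962219-76962498 on the minus strand, and its E-box begins 3 bases before the start and so spans it.
Mxd4: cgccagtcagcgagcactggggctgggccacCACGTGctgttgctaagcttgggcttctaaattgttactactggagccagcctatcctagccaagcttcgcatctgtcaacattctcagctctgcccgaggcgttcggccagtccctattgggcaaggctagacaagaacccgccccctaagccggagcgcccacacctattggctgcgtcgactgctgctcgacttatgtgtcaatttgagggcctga
Mnt: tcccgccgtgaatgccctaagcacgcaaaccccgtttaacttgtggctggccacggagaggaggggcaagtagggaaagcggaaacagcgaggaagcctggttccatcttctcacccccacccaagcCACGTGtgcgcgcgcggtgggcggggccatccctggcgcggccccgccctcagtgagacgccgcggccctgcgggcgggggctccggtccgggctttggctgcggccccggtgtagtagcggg
Mlx: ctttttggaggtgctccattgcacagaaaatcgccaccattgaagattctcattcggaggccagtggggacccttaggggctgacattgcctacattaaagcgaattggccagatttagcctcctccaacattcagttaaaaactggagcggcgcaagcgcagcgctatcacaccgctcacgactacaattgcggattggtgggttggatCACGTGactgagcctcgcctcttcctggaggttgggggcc
Max: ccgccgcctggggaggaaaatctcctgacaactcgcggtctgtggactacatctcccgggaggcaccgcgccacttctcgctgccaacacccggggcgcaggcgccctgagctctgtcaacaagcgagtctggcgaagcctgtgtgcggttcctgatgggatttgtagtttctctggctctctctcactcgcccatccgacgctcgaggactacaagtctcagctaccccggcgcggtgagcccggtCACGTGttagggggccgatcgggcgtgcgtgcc

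The libraries held between 5286775 and 25302016 reads assigned to genes, with 12399951 to 25302016 in the lymphatic group. Markers of B cells were present in every library, where the sum of 10 markers, in CPM (counts scaled to library depth), was 5667 to 6023 for culture, 5939 to 7324 for the lymphatic group and 8928 to 9565 for the hematogenous group. The sum of the 12 T cell markers was 1.18 to 3.79 CPM in culture, and it reached 23.4 to 104 CPM in the lymphatic and 7.37 to 18.3 CPM in the hematogenous group, with Cd3d, Trbc1, Trbc2, Cd4, Cd8a and Cd5 at 0 in all culture libraries. The 11 macrophage and monocyte markers summed to 17.5 to 22.4, 32.1 to 74.9 and 29.6 to 34.7 CPM in the same order, with Lyz2, C1qa, C1qb, C1qc and Fcgr1 at 0 in culture. These markers did not all rise. By the test described below, 6 of them were tested, and 4 were called higher and 2 lower in each comparison with culture. Of all tested genes, 26.4% were called in lymphatic and 27.8% in hematogenous over culture. The 8 stromal and endothelial markers summed to 75.1 to 80.5 CPM for culture, 80.0 to 114.5 for the lymphatic and 139 to 167 for the hematogenous group, highest in all 4 hematogenous libraries. Pecam1, which B cells also express, made up 136 to 163 CPM of the last range, while Col1a1, Col3a1, Pdpn, Ccl19 and Ccl21a were at 0 in all 4 hematogenous libraries. The 7 NK cell markers summed to 18.7 to 22.8 CPM for culture, 1.28 to 6.00 for the lymphatic and 0.19 to 1.07 for the hematogenous group, and the 7 erythroid markers to 11.4 to 29.8, 2.3 to 15.1 and 3.11 to 6.35 CPM. The 9 neutrophil markers summed to 3.21 CPM or less in every library. Lymphatic 4 stood apart. Its ribosomal protein genes took 15.4% of counts against 7.22% to 9.52% elsewhere, it had the highest T cell and macrophage sums, and relative to lymphatic 1 to 3 the genes in the shortest of 4 equal classes by transcript length were higher by a median log2 of 0.70 and those in the longest class were at a median of -0.63. Many calls, signs and values that change without lymphatic 4 are given both ways where they are described. Others are given below with all libraries only. Among these are the log2 of Set in lymphatic over culture (0.54, or 0.39 without lymphatic 4) and of Gsk3b between routes (-0.60, or -0.45). The part of these features in the results was not tested.

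Levels below are CPM after edgeR's TMM scaling, and changes are log2 ratios with standard error from edgeR's quasi-likelihood test on all 12 libraries, with Benjamini-Hochberg adjustment over the 13535 genes. A gene is called changed at an adjusted p under 0.05. The comparisons with culture share the same 4 culture libraries, so they are not independent of each other. In these bulk libraries, a smaller share of cells expressing a gene and less RNA per cell cannot be told apart.

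Myc itself, the driver of this lymphoma, kept a level that the test did not separate between groups. It stood at 594, 675, 559 and 561 CPM in culture 1 to 4. The lymphatic libraries had 553, 448, 664.5 and 637 CPM, and the hematogenous libraries 656, 703, 564 and 624 CPM. The 3 groups overlapped, with the lowest value in lymphatic 2 and the highest in hematogenous 2. Means were 597 ± 54.2, 575.5 ± 97.3 and 636.5 ± 58.4 CPM (SD, n = 4 libraries each). The log2 change was -0.05 ± 0.131 in lymphatic over culture (95% interval -0.335 to 0.23, adjusted p = 0.798) and 0.09 ± 0.131 in hematogenous over culture (-0.19 to 0.37, adjusted p = 0.668). Lymphatic over hematogenous was -0.145 ± 0.131 (-0.43 to 0.14, adjusted p = 0.447). Myc was not called in any of the 21 alternative fits of any of the 3 comparisons. Each library gave 3293 to 11353 Myc reads.

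Mycn, the paralog best known from neural tissue, gave 3 reads in all 12 libraries: 1 in culture 2, 2 in lymphatic 2 and none in the hematogenous group. The 3 counts that a count of 0 allows correspond to 0.0756 CPM over the hematogenous libraries, for counting error only. The relative Mycl gave 15 reads over all libraries and the MLX partner Mlxipl 8, and neither was tested.

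Max, the obligate partner of MYC and a partner of the MXD proteins, stood at 123, 119, 105 and 111 CPM in culture. It was at 108, 102, 106 and 154 CPM in the lymphatic libraries and at 103, 109.6, 105 and 90.8 CPM in the hematogenous ones. Lymphatic 4 was above every other library, and without it the groups overlapped. The mean was 114 ± 7.87 CPM for culture, 118 ± 24.7 for the lymphatic and 102 ± 8.05 for the hematogenous group (SD, n = 4). The log2 change was 0.04 ± 0.134 in lymphatic over culture (adjusted p = 0.858), -0.16 ± 0.134 in hematogenous over culture (adjusted p = 0.421) and 0.20 ± 0.134 in lymphatic over hematogenous (adjusted p = 0.293). Without lymphatic 4 the first of these was -0.13 (adjusted p = 0.26) and the last 0.03. The sign of the lymphatic to culture value also turned without culture 3 (-0.002) or with library totals only (-0.036).

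**Figure D1:**
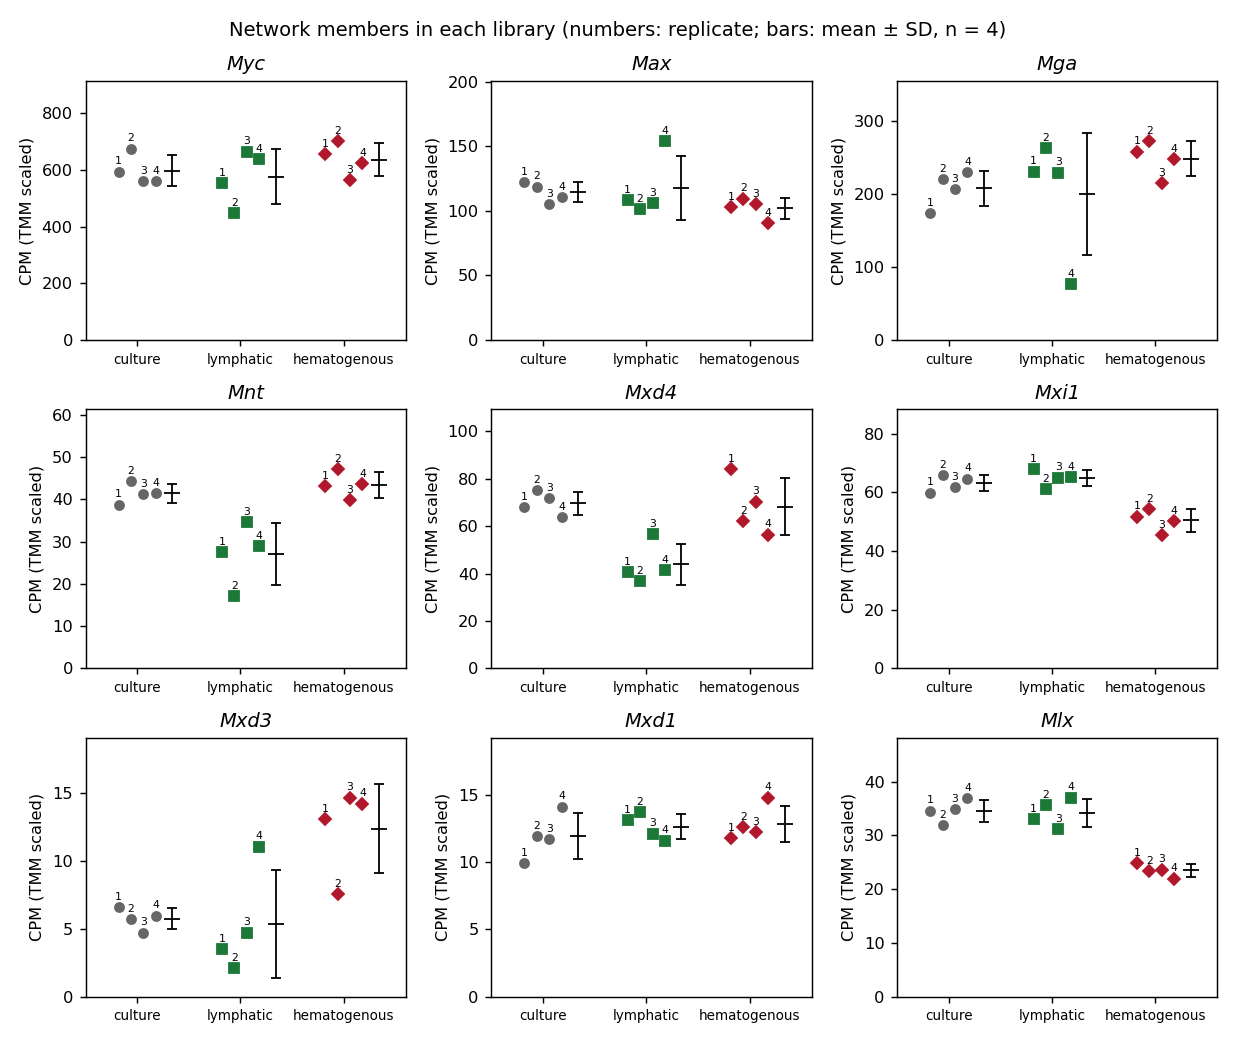
Level of the 9 tested members in each library, in CPM after TMM scaling (vertical axis), by group; each point is 1 library with its replicate number, and bars give mean ± SD of 4. Mnt is lower in all 4 lymphatic libraries than in any other library, Mlx is lower in all 4 hematogenous libraries, and lymphatic 4 lies apart from its group for Max, Mga and Mxd3.

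The MAX partners with repressor function did not move together. The plot of levels by library shows the pattern. Mxd4 and Mnt were lower in the lymphatic libraries than in either other group. Mxi1 was lower in the hematogenous libraries, Mxd3 was highest there, and Mxd1 changed in no comparison.

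Mnt encodes a widely expressed repressor that pairs with MAX or MLX and counters MYC. It stood at 38.8, 44.4, 41.2 and 41.5 CPM in culture. The lymphatic libraries had 27.6, 17.1, 34.6 and 28.9 CPM and the hematogenous libraries 43.1, 47.1, 39.8 and 43.6 CPM. All 4 lymphatic libraries were below all 8 others, lymphatic 2 lowest, and culture and hematogenous libraries overlapped. Means were 41.4 ± 2.31 CPM for culture, 27.1 ± 7.3 for the lymphatic and 43.4 ± 3.02 for the hematogenous group (SD, n = 4). Mnt fell by 0.62 ± 0.172 on the log2 scale in lymphatic over culture (95% interval -0.99 to -0.25, adjusted p = 0.0167) and was lower by a log2 of -0.685 ± 0.172 in lymphatic than in hematogenous libraries (-1.05 to -0.32, adjusted p = 0.0118). Hematogenous over culture was 0.07 ± 0.172 (adjusted p = 0.822, 95% interval -0.30 to 0.44). In a fit on the 2 groups compared alone, the adjusted p was 0.056 against culture and 0.0598 against the hematogenous group.

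Mxd4, a MAX partner linked to differentiating and resting cells, had 67.9, 75.2, 71.8 and 64.0 CPM in culture. It had 40.8, 36.9, 56.7 and 41.5 CPM in the lymphatic libraries and 84.1, 62.0, 70.4 and 56.5 CPM in the hematogenous ones. The lymphatic libraries were all below culture, while lymphatic 3 at 56.66 CPM overlapped hematogenous 4 at 56.49 CPM. Means were 69.7 ± 4.85, 43.9 ± 8.71 and 68.2 ± 12 CPM in the order of the groups above (SD, n = 4). Mxd4 fell by 0.67 ± 0.152 on the log2 scale in lymphatic over culture (95% interval -0.995 to -0.34, adjusted p = 0.00527), a call kept in all 21 alternatives. Lymphatic over hematogenous was -0.64 ± 0.152 (-0.97 to -0.31, adjusted p = 0.00878), and 0.0517 in the fit on those 2 groups alone. Hematogenous over culture was -0.03 ± 0.152 (adjusted p = 0.92). The T cell marker sum was highest in the 4 lymphatic libraries and the macrophage sum was highest there on average, and their part in the Mnt and Mxd4 values was not tested.

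Mxi1, also a MAX partner that recruits SIN3 corepressors, stood at 59.9, 65.9, 61.9 and 64.7 CPM in culture. It was at 67.9, 61.0, 65.0 and 65.2 CPM in the lymphatic libraries and at 51.7, 54.4, 45.3 and 50.2 CPM in the hematogenous libraries. All 4 hematogenous libraries were below the 8 others, and culture and lymphatic libraries overlapped. Mxi1 fell by 0.32 ± 0.0968 in hematogenous over culture on the log2 scale (95% interval -0.53 to -0.115, adjusted p = 0.022). It was higher by 0.36 ± 0.0962 in lymphatic over hematogenous libraries (0.155 to 0.57, adjusted p = 0.016). Lymphatic over culture was 0.04 ± 0.0959 (adjusted p = 0.802). The call against culture was lost without culture 2 (adjusted p = 0.067), culture 4 (0.0599), hematogenous 3 (0.0842) or hematogenous 4 (0.0514), and that between routes without hematogenous 3 (0.0639) or in a fit on those 2 groups alone (0.0682).

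Mxd3, a MAX partner expressed in dividing cells, was among the least abundant members, with 33 to 197 reads in a library. It stood at 6.60, 5.72, 4.72 and 5.97 CPM in culture. The lymphatic libraries had 3.51, 2.11, 4.72 and 11.1 CPM and the hematogenous libraries 13.1, 7.56, 14.7 and 14.2 CPM. All 4 hematogenous libraries were above all 4 culture libraries. Lymphatic 4 was higher than lymphatic 1 to 3 and than hematogenous 2. Lymphatic over hematogenous was -1.21 ± 0.397 (95% interval -2.06 to -0.35, adjusted p = 0.0435), and hematogenous over culture was 1.09 ± 0.406 (0.22 to 1.97, adjusted p = 0.0608), which missed the threshold.

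These Mxd3 calls depended on single libraries, while the log2 of hematogenous over culture stayed at 0.998 to 1.275 with any 1 library left out. The call between routes was lost without any 1 culture library (adjusted p = 0.0565, 0.0579, 0.0555 and 0.0608 for culture 1 to 4), without lymphatic 1 (0.0956), lymphatic 2 (0.0712) or lymphatic 3 (0.0814), and without hematogenous 1 (0.0979), hematogenous 3 (0.101) or hematogenous 4 (0.0931), as well as in a fit on those 2 groups alone (0.105). Without lymphatic 4, Mxd3 was lower in lymphatic than in hematogenous libraries by a log2 of -1.88 (adjusted p = 9.81e-05), against culture it was at -0.79 in lymphatic libraries (adjusted p = 0.0386), and the hematogenous rise over culture was called (adjusted p = 0.00213). That rise was also called without lymphatic 2 (0.0231) or hematogenous 2 (0.0421), and in a fit on hematogenous and culture libraries alone (0.000247). With lymphatic 4, lymphatic over culture was -0.11 ± 0.407 (adjusted p = 0.867). Mxd3 exons overlap those of Prelid1 on the other strand over 105 bases (4.43% of the exon length) in the older GENCODE M21 annotation, and whether the counting used strand is not given in the sources used here.

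Mxd1, a MAX partner induced as blood cells differentiate, had 9.94, 12.0, 11.7 and 14.1 CPM in culture 1 to 4. It had 13.1, 13.7, 12.1 and 11.6 CPM in the lymphatic libraries and 11.8, 12.6, 12.2 and 14.8 CPM in the hematogenous ones. The groups overlapped throughout. Means were 11.9 ± 1.72, 12.6 ± 0.952 and 12.8 ± 1.34 CPM (SD, n = 4). The log2 change was 0.09 ± 0.146 in lymphatic over culture (95% interval -0.23 to 0.40) and 0.10 ± 0.148 in hematogenous over culture (-0.22 to 0.42), with adjusted p = 0.702 and 0.67, and between routes the adjusted p was 0.956.

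**Figure D2:**
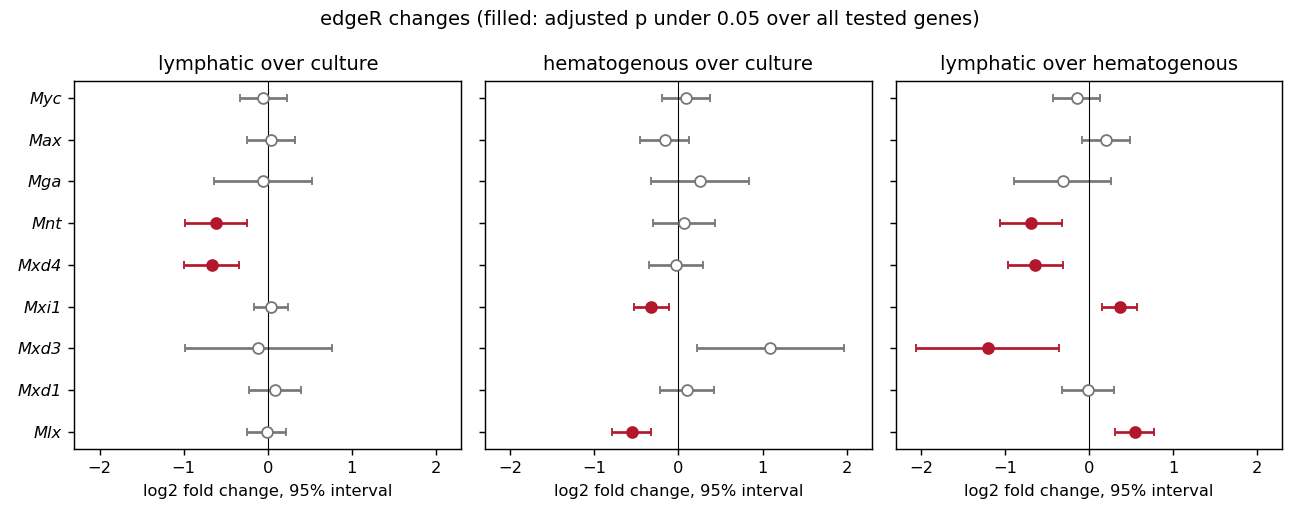
Log2 ratio of each tested member in the 3 comparisons (horizontal axis), with 95% intervals from edgeR's quasi-likelihood fit on 12 libraries; filled points have an adjusted p under 0.05. Intervals for Mxd4 and Mnt lie below 0 in both comparisons of the lymphatic group, those for Mlx and Mxi1 lie off 0 in both comparisons of the hematogenous group, and those for Myc, Max, Mxd1 and Mga cross 0 in all 3.

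Mlx, the MAX-like partner of the glucose-responsive factors, was the member with the smallest p over the 3 groups (adjusted p = 0.00145). It stood at 34.6, 31.9, 35.0 and 36.9 CPM in culture. The lymphatic libraries had 33.1, 35.6, 31.2 and 37.0 CPM and the hematogenous libraries 24.9, 23.4, 23.6 and 22.0 CPM. The 4 hematogenous libraries were below all 8 others and close to each other, while culture and lymphatic libraries overlapped. Group means were 34.6 ± 2.05, 34.2 ± 2.58 and 23.5 ± 1.2 CPM (SD, n = 4). Mlx fell by 0.56 ± 0.108 on the log2 scale in hematogenous over culture (95% interval -0.79 to -0.325, adjusted p = 0.00137). It was higher by 0.54 ± 0.107 in lymphatic over hematogenous libraries (0.31 to 0.77, adjusted p = 0.00294). Both calls were kept in all 21 alternatives. The B cell and the stromal and endothelial marker sums were highest in the 4 hematogenous libraries, in which Mlx and Mxi1 were lowest, and their part in the Mlx and Mxi1 values was not tested. Lymphatic over culture was -0.015 ± 0.106 (-0.24 to 0.21, adjusted p = 0.933). In the older annotation, 385 bases of Mlx exons (19.3%) overlap Psmc3ip on the other strand, so reads of the 2 genes may be mixed if counting ignored strand.

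Mlxip, which encodes MondoA, the MLX partner that senses glucose metabolites, is not one of the 10 members and moved the other way from Mlx in the hematogenous group. It stood at 92.6, 109, 109 and 114 CPM in culture. The lymphatic libraries had 123, 126, 143 and 56.4 CPM and the hematogenous libraries 215, 151, 211 and 223.5 CPM. All 4 hematogenous libraries were above the 8 others, and lymphatic 4 was the lowest of all. Mlxip rose by 0.91 ± 0.227 on the log2 scale in hematogenous over culture (95% interval 0.43 to 1.40, adjusted p = 0.0075). It was lower in lymphatic than in hematogenous libraries by -0.84 ± 0.226 (adjusted p = 0.0173), by -0.62 without lymphatic 4 (adjusted p = 0.00105), and this call was lost without hematogenous 4 (adjusted p = 0.0506) or in a fit on the 2 groups alone (0.0698).

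Mga encodes a very large protein that pairs with MAX and belongs to a variant Polycomb complex. It stood at 174, 220.0, 207 and 229.8 CPM in culture. The lymphatic libraries had 230.4, 262, 229 and 76.7 CPM and the hematogenous libraries 258, 273, 215 and 248 CPM. Lymphatic 4 was far below every other library, and otherwise the groups overlapped. Mga was not called in any of the 3 comparisons, at -0.06 ± 0.27 in lymphatic over culture (adjusted p = 0.901), 0.26 ± 0.27 in hematogenous over culture (adjusted p = 0.539) and -0.31 ± 0.27 in lymphatic over hematogenous (adjusted p = 0.423). Without lymphatic 4 these were 0.21 (adjusted p = 0.126), 0.26 (adjusted p = 0.0363, called higher) and -0.05 (adjusted p = 0.736). Relative to lymphatic 1 to 3, lymphatic 4 was at a log2 of -1.65 for Mga, where the median of the 3331 genes in the longest class by transcript length (4476 to 123179 bases) was -0.63. Mxd1, Mxd4, Mxi1 and Mnt lie in the same length class and were at -0.16, -0.09, 0.015 and 0.185 in that library.

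Over the 9 tested members, 2 were called in lymphatic over culture, both lower (22.2%), where 26.4% of all 13535 genes were called and 13.0% were called lower. In hematogenous over culture 2 were called, both lower (22.2%), against 27.8% of all genes and 13.9% called lower. In lymphatic over hematogenous 5 were called, Mlx and Mxi1 higher and Mxd4, Mnt and Mxd3 lower (55.6%), against 22.3% of all genes, with 11.4% called higher and 10.9% lower. Libraries did not overlap for 2 members in lymphatic and culture, for 3 in hematogenous and culture (1 higher and 2 lower) and for 3 in lymphatic and hematogenous libraries, where 30.1%, 43.7% and 24.6% of all genes did not overlap. In hematogenous and culture libraries, 21.9% of all genes did not overlap and were higher, and 21.8% lower. The share called against culture was near that of all genes in both comparisons. The median absolute log2 change of the members was 0.056, 0.163 and 0.36 in the 3 comparisons, beside 0.336, 0.327 and 0.331 over all genes, as the plot of log2 ratios shows. Leaving out 1 library at a time, 1 to 4 members were called in hematogenous over culture and 3 to 5 in lymphatic over hematogenous. The call counts of 1 and 4 come from the Mxi1, Mxd3 and Mga changes named above.

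Levels of different genes were compared per length of merged exons, as TPM (reads scaled to gene length and then to library depth) computed from the counts with GENCODE M21 lengths. Myc was the most abundant member in every group, at 714 ± 67.8 TPM for culture, 622 ± 128 for the lymphatic and 756 ± 87.7 for the hematogenous group (SD, n = 4). Max came next, at 103, 94.2 and 91.5 TPM, and lay below Myc in every library. In culture the order then ran Mlx (56.2 TPM), Mga (44.1), Mxi1 (30.1), Mnt (29.1), Mxd4 (26.7), Mxd3 (7.88), Mxd1 (5.50) and Mycn (0.0432). Mxi1, Mnt and Mxd4 overlapped their neighbours in that order, as did Mxd3 and Mxd1.

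In the lymphatic libraries the order by mean was the same, with Mlx at 50.3, Mga at 40.5, Mxi1 at 28.1, Mnt at 17.2, Mxd4 at 15.4, Mxd3 at 6.10 and Mxd1 at 5.32 TPM, and all neighbours from Mlx to Mxd4 overlapped. In the hematogenous libraries Mga (52.2 TPM) stood above Mlx (37.9 TPM) without overlap, followed by Mnt (30.3), Mxd4 (25.9), Mxi1 (23.8), Mxd3 (16.7) and Mxd1 (5.85), with Mnt, Mxd4 and Mxi1 overlapping. On this scale Max in lymphatic 4 was within its group, whose range was 90.2 to 96.1 TPM. With the longest transcript as length, Mxd4 moved from rank 7 to rank 4 in culture and from rank 6 to rank 4 in the hematogenous group. Ranks of Myc, Max, Mxd3, Mxd1 and Mycn were the same under both lengths.

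**Figure D3:**
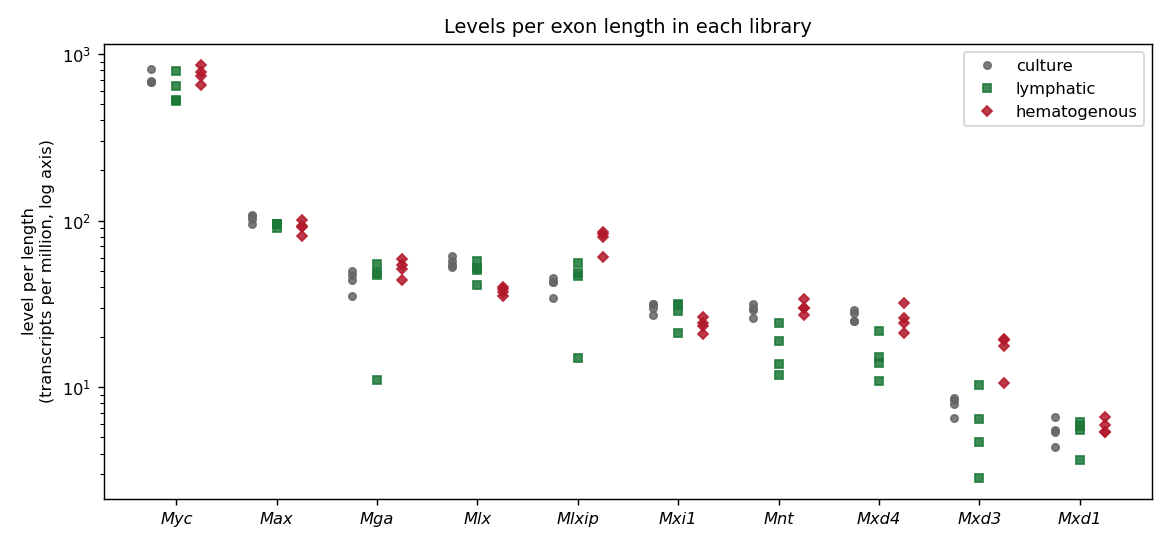
Level per length (TPM, merged exon length, logarithmic vertical axis) of the 9 tested members and of Mlxip; each point is 1 library, coloured by group. Myc lies at 521.5 to 862 TPM, above all other members in every library, and Mxd1 at 3.65 to 6.67 TPM.

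The balance between Myc and some of its antagonists was described as a ratio of levels per length, with no test, since several of its members are described above. Mga, which also pairs with MAX, was not part of it. The summed level of Mxd1, Mxd3, Mxd4, Mxi1 and Mnt was 91.2, 106, 98.6 and 102 TPM in culture. It was 76.0, 63.4, 89.1 and 60.1 TPM in the lymphatic libraries and 109.5, 102, 98.8 and 101 TPM in the hematogenous ones. Every lymphatic library was below every other library, also when lymphatic 4 is set aside. Levels per length carry no TMM scaling, and lymphatic 4 stood lower in its group on this scale than in CPM. Mxi1 there was at 65.2 CPM, within its group, but at 21.3 TPM against 28.6 to 31.4 in lymphatic 1 to 3. Myc there was at 637 CPM but at 521.5 TPM, the lowest of all libraries. Myc over this sum was 7.45, 7.71, 6.84 and 6.77 in culture, 8.45, 8.32, 8.93 and 8.68 in lymphatic and 7.10, 8.50, 6.60 and 7.29 in hematogenous libraries. The lymphatic values lay above all culture values, and hematogenous 2 lay within their range.

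Myc over Max was 6.92 ± 0.474, 6.59 ± 1.25 and 8.28 ± 0.85 in culture, lymphatic and hematogenous libraries, and the 3 ranges overlapped. Mlxip over Mlx ranged from 0.642 to 0.819 for culture. It was 0.85 to 1.10 for lymphatic 1 to 3 and 0.366 for lymphatic 4, against 1.54 to 2.44 for the hematogenous group. The hematogenous libraries were above all others in this ratio. Mga over Max ranged from 0.333 to 0.486 for culture, from 0.499 to 0.607 for lymphatic 1 to 3 and from 0.479 to 0.64 for the hematogenous group, and was 0.117 for lymphatic 4.

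**Figure D4:**
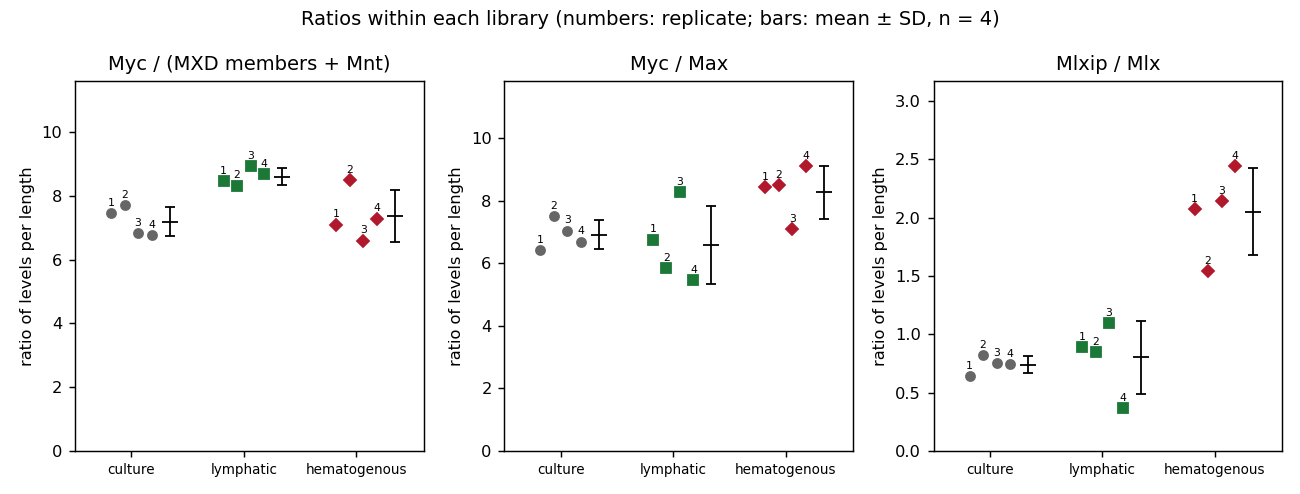
Ratios of levels per length in each library, by group, with mean ± SD of 4 libraries. Myc over the summed MXD and MNT genes lies at 8.32 to 8.93 in the lymphatic libraries against 6.77 to 7.71 in culture, and Mlxip over Mlx lies at 1.54 to 2.44 in the hematogenous libraries against at most 1.10 elsewhere.

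Genes whose profile over the 12 libraries was most like that of a member were found among 8165 genes of at least 10 CPM, by the root mean square difference of centred log2 CPM. Among those closest to Myc were Tbrg4 (0.0769), Usp5 (0.0911) and Acin1 (0.092), where Myc's own spread was 0.17. Closest to Mlx were Tra2a (0.0619), Tmem183a (0.0731), Ubxn4 (0.0897) and Leprotl1 (0.0984), against a spread of 0.269. Tra2a stood at 309 ± 12.9 CPM for culture, 309 ± 43.5 for the lymphatic and 204 ± 5.39 for the hematogenous group, lower in the last group as Mlx was. Closest to Mxd4 were Mroh1 (0.137), Zfp746 (0.147), Pias3 (0.147) and Gnas (0.153), against a spread of 0.364.

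Genes that MYC and MAX are known to activate were read from a list of 25, all tested. This list and those below were chosen with earlier results of these data known, so their shares are a description. In lymphatic over culture 15 were called higher and 1, the transferrin receptor gene Tfrc, lower (64.0% of the list, where 26.4% of all tested genes were called, 13.4% higher and 13.0% lower). The median log2 was 0.46 beside 0.04 over all genes. The largest rises were in Ccnd2 (cyclin D2), at 5.46 ± 1.97 against 0.268 ± 0.262 CPM (log2 4.17 ± 0.466, adjusted p = 2.05e-05), Hspe1 (a mitochondrial chaperonin; 0.87 ± 0.223, adjusted p = 0.0109), Npm1 (nucleophosmin of the nucleolus; 0.70 ± 0.156, adjusted p = 0.00452) and Nop58 (a nucleolar ribonucleoprotein; 0.65 ± 0.126, adjusted p = 0.00172). Leaving out 1 library at a time gave 10 to 17 called higher, and 15 without lymphatic 4. The call for Tfrc lower was lost without any 1 culture library or lymphatic 3, and 3 genes were called lower without lymphatic 4. Without that library Hspe1 was at 0.49 (adjusted p = 0.000555) and Npm1 at 0.50 (adjusted p = 0.000632), and Ldha was called lower (-0.44, adjusted p = 0.00323, against -0.20 with it).

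In hematogenous over culture 3 of the 25 were called higher and 5 lower (32.0%, against 27.8% of all tested genes), with a median log2 of -0.03. The falls were in Ldha (lactate dehydrogenase A), at 1142 ± 148 against 2682 ± 152 CPM (-1.23 ± 0.174, adjusted p = 0.000104), Tfrc (-1.14 ± 0.161, adjusted p = 0.000107), Nolc1 (a nucleolar phosphoprotein; -0.46 ± 0.0875, adjusted p = 0.00112), Cdk4 (a cell cycle kinase; -0.48 ± 0.169, adjusted p = 0.0467) and Hspd1. Ccnd2, Ncl and Pa2g4 were the 3 called higher. The Cdk4 call was lost without any 1 culture or hematogenous library or lymphatic 1 (adjusted p = 0.0537 to 0.131) and with the replicate block (0.082). Leaving out 1 library gave 2 to 6 called higher, with 6 without lymphatic 4 and 5 without lymphatic 2, and 3 to 6 called lower, with 3 without culture 1, culture 3, hematogenous 1, hematogenous 3 or hematogenous 4. Without lymphatic 4, 5930 of all genes were called in this comparison, against 3760 with all libraries.

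In lymphatic over hematogenous 13 of the 25 were called higher and none lower (52.0%, against 22.3% of all tested genes, 11.4% higher), with a median log2 of 0.46 beside 0.03 over all genes. They included Hspe1 (1.20 ± 0.224, adjusted p = 0.00211), Ldha (1.03 ± 0.173, adjusted p = 0.00105), Hspd1 (0.82 ± 0.11, adjusted p = 0.00022) and Nolc1, at 922 ± 28.8 against 532 ± 20.8 CPM (0.79 ± 0.0877, adjusted p = 6.59e-05). At an unadjusted p under 0.05, 17 were higher and 0 lower, and DESeq2 and limma-voom called 15 and 10 higher and 0 lower. The shares of all genes at that threshold and in those tools are not given here. The 22.3% and 11.4% above hold for the adjusted edgeR calls only. Leaving out 1 library gave 10 to 16 called higher, and 13 without lymphatic 4. Without that library Hspe1 was at 0.82 (adjusted p = 9.05e-06) and Ldha at 0.79 (adjusted p = 2.58e-05). Myc RNA was not called in this comparison, as given above.

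Of 13 genes that MYC is known to repress, 12 were tested. In lymphatic over culture 6 were called lower and 2 higher, and in hematogenous over culture 5 lower and 1 higher, with medians of -0.61 and -0.46. These were 66.7% and 50% of the 12, against 26.4% and 27.8% of all tested genes, of which 13.0% and 13.9% were called lower. Gadd45b, a stress gene, rose from 4.05 ± 0.648 CPM in culture to 27.3 ± 12.4 in lymphatic and 18.6 ± 3.26 in hematogenous libraries (log2 2.75 ± 0.282, adjusted p = 9.33e-06, and 2.19 ± 0.283, adjusted p = 4.78e-05). Gadd45g fell by 2.195 ± 0.42 and by 5.88 ± 0.596 on the log2 scale (adjusted p = 0.00159 and 5.09e-06), and the latter rests on 12 reads in the hematogenous group. Without lymphatic 4 the lymphatic value of Gadd45g was -2.86 (adjusted p = 2.03e-06). Btg2, an antiproliferative gene, fell by 1.07 ± 0.157 and by 1.41 ± 0.159 (adjusted p = 0.000204 and 1.35e-05), and Ndrg1, a hypoxia and differentiation gene, fell by 2.20 ± 0.41 and by 1.68 ± 0.414 (adjusted p = 0.00132 and 0.00719).

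Between routes, 2 of the 12 repressed genes were called higher and 1 lower (25%, against 22.3% of all tested genes). Gadd45g (3.69, or 3.01 without lymphatic 4) and Klf6 (a zinc finger factor; 1.05 ± 0.173, adjusted p = 0.000922) were higher in lymphatic libraries, and Btg1 was lower (-1.10 ± 0.141, adjusted p = 0.000165). The hematogenous count called higher over culture was 2 without lymphatic 4 or hematogenous 2. Without lymphatic 4, 5930 of all genes were called in hematogenous over culture, against 3760 with all libraries. The count called lower between routes was 2 without culture 2 or lymphatic 4.

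Of 5 genes that MLX with MondoA is known to activate, 3 were tested, and all 3 were called higher in both comparisons with culture, where 13.4% and 13.9% of all tested genes were. Txnip, which restrains glucose uptake, stood at 220.3 ± 10.2 CPM for culture, 298 ± 23.5 for the lymphatic and 324 ± 64 for the hematogenous group (log2 0.435 ± 0.135, adjusted p = 0.0292, and 0.56 ± 0.136, adjusted p = 0.00672). The lymphatic rise was lost without culture 1 (adjusted p = 0.0584), culture 2 (0.0649), culture 3 (0.0642) or culture 4 (0.0835), with library totals only (0.0523), with the replicate block (0.0532) and without lymphatic 4 and culture 4 together (0.0692). Its relative Arrdc3 rose by 0.90 ± 0.195 and 1.01 ± 0.197 (adjusted p = 0.00368 and 0.00139), and Klf10 by 0.72 ± 0.146 and 0.98 ± 0.147 (adjusted p = 0.00243 and 0.000176). Between routes, edgeR, DESeq2 and limma-voom each called 0 of the 3, and 0 had an unadjusted p under 0.05, with a median log2 of -0.12.

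The cofactors of the network were read from a list of 17 MYC coactivators and a list of 16 SIN3 and NCOR corepressor genes, which MXD proteins use. Among coactivators, 5 were called lower and 2 higher in lymphatic over hematogenous libraries (41.2% of the 17, against 22.3% of all tested genes). The lower genes included the histone acetyltransferase genes Ep300 (-0.93 ± 0.263, adjusted p = 0.0217) and Crebbp (-0.79 ± 0.144, adjusted p = 0.00183) and the remodeller Smarca4 (-0.63 ± 0.152, adjusted p = 0.00915). The Ep300 call was lost without hematogenous 1 (0.0635) or hematogenous 2 (0.0564), and in a fit on the 2 groups alone neither Ep300 (0.0839) nor Smarca4 (0.0542) was called. Without lymphatic 4 the Ep300 difference was -0.68 (adjusted p = 0.000222), and that against culture was -0.545 (adjusted p = 0.00104). The count called higher was 1 without hematogenous 1 or hematogenous 4. Without lymphatic 4 the counts between routes were 7 lower and 3 higher. Over all genes, leaving out 1 library at a time gave 2002 to 4333 called between routes, against 3012 with all libraries.

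Against culture, 2 coactivators were called higher and 2 lower in lymphatic libraries (23.5%, near the 26.4% of all tested genes), among them Dmap1 (0.495 ± 0.161, adjusted p = 0.0359), Ruvbl1 (0.335 ± 0.107, adjusted p = 0.0333) and, lower, Ep300 (-0.80 ± 0.263, adjusted p = 0.0371). Each of these 3 calls was lost without at least 5 of the 12 libraries in turn, all 3 of them without culture 2 or culture 4 (adjusted p of 0.0509 to 0.109), and in a fit on the 2 groups alone (0.0826 to 0.0929). Without the low count filter, with library totals only or with the replicate block, Dmap1 (0.052 to 0.0592) and Ruvbl1 (0.0584 to 0.11) were not called either. In hematogenous libraries 4 were called higher and 1 lower (29.4%, near the 27.8% of all tested genes), among them Smarcb1 (0.49 ± 0.111, adjusted p = 0.00383), Crebbp (0.51 ± 0.144, adjusted p = 0.0154), Dmap1 (0.56 ± 0.163, adjusted p = 0.0193) and, lower, the acetyltransferase gene Kat5 (-0.49 ± 0.119, adjusted p = 0.0067). Crebbp was lost without culture 1 (0.0508) or hematogenous 2 (0.053), and Dmap1 without culture 2 (0.0621), culture 4 (0.0714) or hematogenous 2 (0.0504). Kat5 was not called without the low count filter (0.0531). Without lymphatic 4 the counts over culture were 2 higher and 4 lower in lymphatic and 5 higher and 1 lower in hematogenous libraries. In that fit 5930 of all genes were called in hematogenous over culture, against 3760 with all libraries. For lymphatic over culture, leaving out 1 library at a time gave 2664 to 4908 of all genes.

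Of the 15 corepressor genes tested, 4 were called higher and 1 lower in lymphatic over culture, 2 higher and 1 lower in hematogenous over culture, and 1 higher between routes. These are 33.3%, 20% and 6.67% of the list, against 26.4%, 27.8% and 22.3% of all tested genes. Tbl1xr1, an NCOR subunit, rose by 0.465 ± 0.112 and 0.76 ± 0.112 over culture (adjusted p = 0.0073 and 0.000147). The deacetylase genes Hdac2 in lymphatic (0.42 ± 0.11, adjusted p = 0.0117) and Hdac1 in hematogenous libraries (0.45 ± 0.0914, adjusted p = 0.00189) were also higher, as was Sap18 in lymphatic libraries (0.57 ± 0.155, adjusted p = 0.0143). Sap30, a SIN3 subunit, stood at 41.4 ± 2.64, 41.3 ± 18.2 and 22.0 ± 3.21 CPM and was called lower in hematogenous libraries against culture (-0.91 ± 0.235, adjusted p = 0.00938) and against lymphatic ones, where the call was lost without hematogenous 1 (0.0533). Without lymphatic 4 the difference between routes was 0.55 (adjusted p = 0.00374) and Sap30 was called lower in lymphatic over culture as well (-0.36, adjusted p = 0.0363). Without lymphatic 4, the hematogenous counts over culture were 4 higher and 2 lower, and 3 genes were called lower between routes. Over all genes, 5930 were called in hematogenous over culture in that fit, against 3760 with all libraries. Between routes, leaving out 1 library at a time gave 2002 to 4333 of all genes.

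Genes that control the stability or phosphorylation of MYC protein were read from a list of 23. Pim1, a kinase gene, stood at 8.75 ± 1.5 CPM for culture, 36.0 ± 10 for the lymphatic and 26.9 ± 3.98 for the hematogenous group (log2 2.04 ± 0.208, adjusted p = 9.24e-06, and 1.615 ± 0.209, adjusted p = 4.7e-05). It was the largest change among the called genes of this list in both comparisons. In all, 3 were called higher and 1 lower in lymphatic over culture, and 2 higher and 2 lower in hematogenous over culture. That is 17.4% of the list in each, below the 26.4% and 27.8% of all tested genes. Ppp2r5a, a phosphatase subunit gene, rose by 0.35 ± 0.0944 and 0.58 ± 0.0948 (adjusted p = 0.0144 and 0.000372), the former lost without culture 4 (0.0529). Set, which encodes an inhibitor of that phosphatase, rose in lymphatic libraries (0.54 ± 0.129, adjusted p = 0.00694). Trim32, a ubiquitin ligase gene, fell by 0.49 ± 0.113 and by 0.42 ± 0.114 (adjusted p = 0.00524 and 0.0134), and neither call was kept without the low count filter (0.0616 and 0.155), nor was that of Ppp2r5a in lymphatic libraries (0.0905).

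Between routes, the kinase gene Aurka was higher in lymphatic libraries (0.575 ± 0.14, adjusted p = 0.00974), and Gsk3b, the kinase that marks MYC for degradation (-0.60 ± 0.157, adjusted p = 0.0152), and Axin1 (-0.496 ± 0.116, adjusted p = 0.00803) were lower. These 3 are 13.0% of the list, against 22.3% of all tested genes. In a fit on the 2 groups alone Gsk3b (0.0738) and Axin1 (0.0613) were not called. Aurka was also lower in hematogenous than in culture libraries (-0.42 ± 0.14, adjusted p = 0.0376), a call lost without 6 of the 12 libraries in turn, namely culture 1, culture 2, culture 3, hematogenous 2, hematogenous 3 and hematogenous 4 (0.0647 to 0.114), and without the low count filter (0.0801) or with the replicate block (0.0565). Without lymphatic 4 the turnover counts over culture were 5 higher in lymphatic and 7 higher and 4 lower in hematogenous libraries, and 5 were lower between routes. More genes of any kind were called in that fit in hematogenous over culture, 5930 against 3760 with all libraries. With 1 library left out at a time, 2664 to 4908 of all genes were called in lymphatic over culture and 2002 to 4333 between routes.

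The variant Polycomb complex that holds MGA was read from a list of 11, all tested. Cbx3, a heterochromatin protein gene, rose by 0.44 ± 0.0931 and 0.46 ± 0.0934 over culture (adjusted p = 0.00315 and 0.00196). E2f6 fell by 0.55 ± 0.118 in hematogenous over culture (adjusted p = 0.00282), as did Rnf2, the catalytic ubiquitin ligase, by 0.57 ± 0.117 (adjusted p = 0.00214). Between routes Tfdp2 (-0.96 ± 0.209, adjusted p = 0.00527) and L3mbtl2 (-0.42 ± 0.118, adjusted p = 0.0218) were lower and Rnf2 (0.49 ± 0.116, adjusted p = 0.0089) higher in lymphatic libraries. L3mbtl2 lost its call without hematogenous 1 (0.0696) or hematogenous 2 (0.0614), without the low count filter (0.0768) and in a fit on the 2 groups alone (0.0985). In lymphatic over culture Rybp (-0.82 ± 0.252, adjusted p = 0.0278) and E2f6 (-0.335 ± 0.117, adjusted p = 0.0489) were called lower. Both calls were lost without any 1 culture library, and E2f6 also without lymphatic 1, lymphatic 3, hematogenous 2, hematogenous 3 or hematogenous 4 (0.051 to 0.134). In a fit on the 2 groups alone neither was called (0.0747 and 0.0864), and E2f6 was also lost without the low count filter (0.207) or with the replicate block (0.0832). Rybp was at -0.57 without lymphatic 4 (adjusted p = 0.00144). The counts were 2 higher and 2 lower, 1 higher and 2 lower, and 2 higher and 2 lower in the 3 comparisons. These are 36.4%, 27.3% and 36.4% of the list, against 26.4%, 27.8% and 22.3% of all tested genes. Without lymphatic 4, 4 were lower in lymphatic and 3 higher in hematogenous over culture. That fit called 5930 of all genes in hematogenous over culture, against 3760 with all libraries. For lymphatic over culture, leaving out 1 library at a time gave 2664 to 4908 of all genes.

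**Figure D5:**
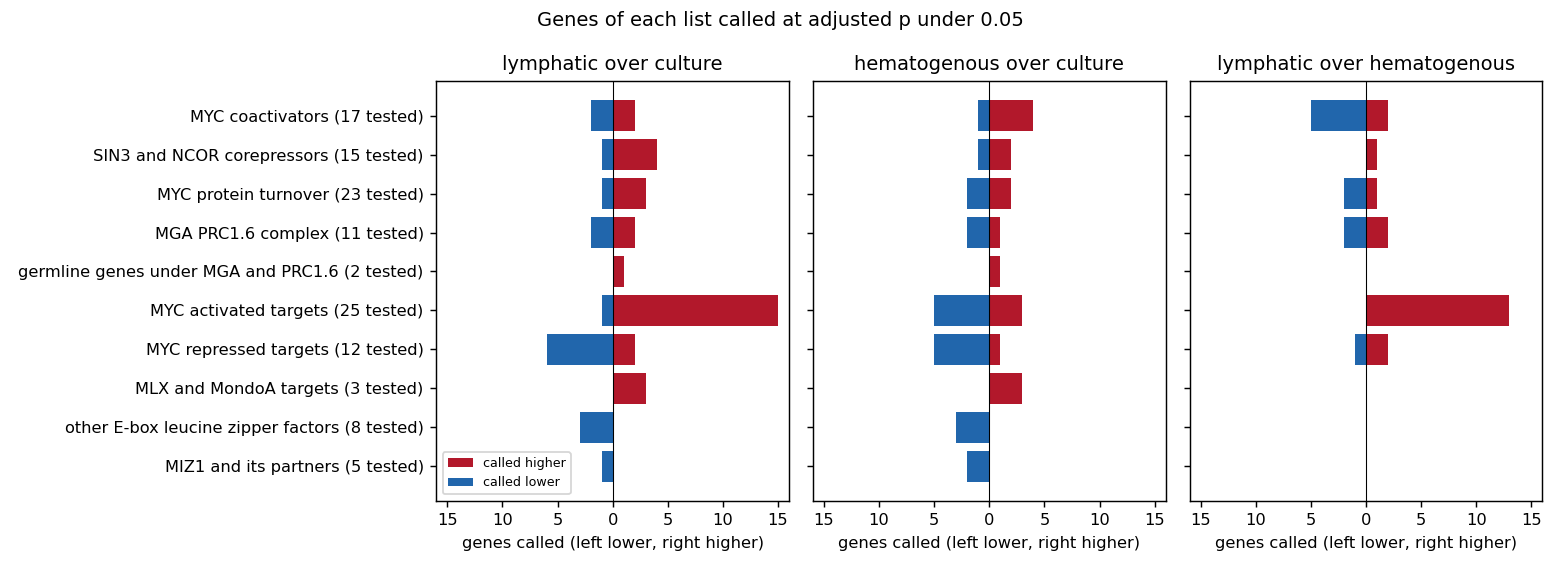
Number of genes of each list called higher (right) or lower (left) at an adjusted p under 0.05, in each comparison, from edgeR's quasi-likelihood fit on 12 libraries. Of the MYC activated targets, 15 of 25 are called higher in lymphatic over culture and 13 of 25 in lymphatic over hematogenous, against 3 higher and 5 lower in hematogenous over culture.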

How the data were processed

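Polyadenylated RNA was sequenced from 12 libraries in 3 groups of 4. The deposited counts per gene are the authors' raw read counts, made per the submitters' processing notes with FastQC 0.11.9, Trimmomatic 0.39, HISAT2 2.1.0 and HTSeq 2.0.2 on GRCm39. The counting strand setting is not given in the sources used here. The 5 summary lines, holding 30.3% to 36.5% of reads, were left out. Symbols came from GENCODE M21 (91.8% of IDs matched). Genes were filtered with filterByExpr and tested with edgeR 4.0.16 (R 4.3.3) after TMM scaling, in 1 quasi-likelihood fit of all groups. The scripts were tested on simulated counts. Alternatives used DESeq2 1.42.0, limma 3.58.1, other scalings, filters and samples, each library left out, and a replicate block. Replicate numbers were not used as pairs in the main fit. Libraries of the same number did not correlate above 0.1, which with 4 libraries a group cannot exclude pairing. The members and gene lists were chosen with earlier results of these data known. All members were named, and from each list up to 4 called genes per comparison with the largest log2 change and at least 5 CPM. Some genes that this rule or the likeness measure picked are not reported here. Other genes of a list that are named (such as Hspd1, Ncl, Pa2g4 and Gadd45g between routes) were added after their values were seen. Levels per length used GENCODE M21 lengths (GRCm38). Intervals and floors cover counting error only where they come from counts.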

Additional observations from a re-analysis of the deposited data

Results flagged for a closer look

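The level of Max in lymphatic 4, 154.4 CPM, lay far from the other 3 lymphatic libraries (101.5 to 108.2 CPM), with a gap of 0.872 of the group's range. It was the only such library among 27 groups of 4 examined (9 members in 3 groups), and chance marks about 1 in 20 groups.

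For 5 members the lymphatic and hematogenous changes over culture differed, tested by the lymphatic over hematogenous contrast in edgeR. The log2 difference was -1.205 for Mxd3 (adjusted p = 0.0435), -0.639 for Mxd4 (0.00878), -0.685 for Mnt (0.0118), 0.362 for Mxi1 (0.016) and 0.542 for Mlx (0.00294). The Mxd3 difference was lost without any 1 of 10 libraries, as given with its values, and was larger, at -1.88, without lymphatic 4. In a fit on the 2 groups alone the adjusted p was 0.105 for Mxd3, 0.0517 for Mxd4, 0.0682 for Mxi1 and 0.0598 for Mnt, so that 1 of the 5, Mlx, was called.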

How the results depend on the processing

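No member changed sign past a threshold under any alternative. Fitting only the 2 groups compared left 1 member called in lymphatic over culture, 4 in hematogenous over culture and 1 in lymphatic over hematogenous, with 6344 and 1734 genes called in the last 2 comparisons (3760 and 3012 in the fit of all groups). Without lymphatic 4 and culture 4, 4 members were called in hematogenous over culture. Leaving out 1 library at a time gave 1 to 4 members in hematogenous over culture and 3 to 5 in lymphatic over hematogenous, and 3125 to 5930 and 2002 to 4333 genes. The highest count in hematogenous over culture, 5930, came without lymphatic 4, and the lowest between routes, 2002, without hematogenous 1. With the replicate block 2960, 3341 and 2309 genes and 2, 2 and 5 members were called in the 3 comparisons, and in hematogenous over culture these were Mxd3 (adjusted p = 0.04) and Mlx, not Mxi1 (0.0562). Libraries of the same number correlated at -0.181 to 0.0919 over 12 pairs, none over 0.1, and 3 of 24 checks matched a library best with its own number. DESeq2 (adjusted p = 0.0253) called Mxd3 in hematogenous over culture, and so did the fit without a low count filter (0.000215), where Mxi1 lost its calls (0.264 against culture, 0.164 between routes). Of 1386 gene list counts under alternatives, 1218 stayed within 1.5 times. Over all libraries the members with the fewest reads were Mycn, with 3, and Mxd3, with 1054 (33 to 197 a library).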

Other observations

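Of 8 tested E-box binding leucine zipper factors outside the MAX network, 3 were called lower in each comparison with culture (37.5%, where 13.0% and 13.9% of all tested genes were called lower) and 5 were not called. Between routes edgeR, DESeq2 and limma-voom called 0 of them, with 2 lower at an unadjusted p under 0.05, a threshold for which no share of all genes is given. Srebf2, which controls sterol synthesis genes, stood at 356.5 ± 38.9 CPM for culture, 114 ± 42.7 for the lymphatic and 163 ± 15.4 for the hematogenous group (log2 -1.65 ± 0.205, adjusted p = 5.1e-05, and -1.13 ± 0.202, adjusted p = 0.000735). Srebf1 stood at 81.2 ± 16.7, 32.3 ± 13 and 31.6 ± 4.41 CPM (-1.33 ± 0.261, adjusted p = 0.00188, and -1.36 ± 0.263, adjusted p = 0.00136). Tfe3 was at -0.49 ± 0.138 (adjusted p = 0.0175) and -0.43 ± 0.14 (adjusted p = 0.0341), the former lost without culture 4 (0.0518) and the latter without any 1 culture or hematogenous library (0.0608 to 0.0848), and both without the low count filter (0.11 and 0.207). The former was also lost in a fit on the 2 groups alone (0.056) and the latter with the replicate block (0.0647).

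Among MIZ1 and its partners (5 tested), 1 was called in lymphatic and 2 in hematogenous over culture, all lower. These are 20% and 40% of the list, against 26.4% and 27.8% of all tested genes, with 13.0% and 13.9% called lower. Bcl6, a germinal centre repressor, stood at 22.2 ± 2.61 CPM for culture, 6.10 ± 1.05 for the lymphatic and 5.24 ± 2.17 for the hematogenous group (-1.87 ± 0.233, adjusted p = 5.26e-05, and -2.07 ± 0.241, adjusted p = 1.84e-05). Gfi1 was lower in hematogenous over culture (-0.45 ± 0.143, adjusted p = 0.031), lost without culture 1, culture 2, culture 3, hematogenous 1, hematogenous 3 or hematogenous 4 (0.0673 to 0.104), without the low count filter (0.0695) or with the replicate block (0.0546). Of 17 germline genes that MGA is known to silence, 2 were tested, and 1 of them, Zcwpw1, was called higher over culture in both groups (0.37 ± 0.103, adjusted p = 0.0164, and 0.39 ± 0.103, adjusted p = 0.0107), the former lost without culture 2 (0.0622) or culture 4 (0.0507), and both without the low count filter (0.0702 and 0.0573). Over all tested genes, 13.4% and 13.9% were called higher. Zcwpw1 stood at 138 ± 8.55 CPM for culture, 179 ± 17.7 for the lymphatic and 182 ± 13.3 for the hematogenous group. The other tested gene was not called and lay below culture in both groups, so the median log2 of the 2 was 0.016 and -0.09.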
